A study of Bos taurus with 53 samples.

Results

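FNDC4, SMARCA1, MAGED1, GATM, TRPC4 and STOM are the 6 genes described here, of 24596 features in the table of the study. They were chosen by the p-value of the comparison of embryonic discs from ovoid and tubular bovine embryos, in which they are among the named genes of lowest p, so that comparison is described below without a test, and tests are given for extraembryonic tissue, for the tissues against each other, for media and for sex. In the order of p in discs they took places 1 to 5 and place 8 among named genes. EMILIN2 (log2 fold change -1.31) and CA2 (-1.27) lay between TRPC4 and STOM, and AKR1A1 (-0.68) and GALNT12 (-0.85) came directly after STOM.

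Bovine oocytes were matured in vitro in 1 of 3 media, fertilised in vitro and cultured to blastocysts, which were placed in the uterus of recipient cows and flushed on day 14. CONTROL medium held neither fatty acids nor solvent, BASAL medium held 3 fatty acids at physiological levels, namely stearic at 28 µM, palmitic at 23 µM and oleic at 21 µM, dissolved in ethanol (0.45%). HIGH PA medium differed from it in palmitic acid, raised to 150 µM, with the stearic (28 µM), oleic (21 µM) and ethanol content (0.45%) of BASAL. The recovered embryos were scored by shape (spherical, ovoid or tubular) and dissected into embryonic disc (ED) and extraembryonic tissue (EX), and RNA of each was sequenced. All embryos, CONTROL included, came from oocytes matured in serum-free medium and were grown in medium with fetal bovine serum. The 53 libraries came from 30 embryos and 7 cows. They were 23 discs (8 ovoid, 15 tubular), 28 EX samples (9 ovoid, 17 tubular, 2 spherical) and 2 undissected HIGH PA embryos. CONTROL comprised 3 tubular discs, all male, 3 tubular EX samples and 1 ovoid EX sample, all from 1 cow, cow813. This cow also gave BASAL and HIGH PA embryos, all of them tubular. The fits between media set CONTROL against embryos of all cows and shapes, so medium, cow and, in discs, shape are mixed there.

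A bovine conceptus passes from a spherical through an ovoid and a tubular to a filamentous form before it attaches, while the disc proceeds from a flat epiblast towards gastrulation, and most of the growth is in the trophectoderm and the hypoblast beneath it. The 6 genes have no single pathway in common. FNDC4 is a membrane-anchored protein with a fibronectin type III domain that can be shed and act as a secreted factor, TRPC4 is a cation channel opened downstream of receptors that couple to phospholipase C, and STOM (stomatin) is a scaffold protein of the inner face of the plasma membrane. GATM makes guanidinoacetate, the precursor of creatine, from arginine and glycine, SMARCA1 is an ATPase of the ISWI family that slides nucleosomes, and MAGED1 is an adaptor protein that binds, among others, the p75 neurotrophin receptor.

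Disc libraries held 6814 to 6167850 exon reads, and EX libraries 9810 to 19533821. Levels below are CPM (reads of a gene per 1000000 exon reads of the library), and they leave out 1 tubular disc and 1 tubular EX library that held under 10000 reads, which the fits keep. In these bulk samples, fewer cells that express a gene and less RNA per cell cannot be told apart. The discs carried trophectoderm transcripts too: the summed level of 12 trophectoderm markers was 7200 to 19419 CPM in discs and 16453 to 30521 CPM in EX samples. Most of this sum was KRT8 and KRT18 (medians 6263 and 6511 CPM in ovoid discs). IFNT2 had medians of 1014 CPM in ovoid and 1529 CPM in tubular discs. The library labelled ED BASAL replicate 12 was at 0 for 5 of 7 epiblast and 8 of 11 primitive streak markers. It is kept in the levels and marker sums below, and values without it are given for STOM between disc shapes and for the correlations. Of the 4 secreted extraembryonic products listed as markers, 0 matched a symbol in the table.

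FNDC4 was the least read of the 6 genes, with 138 reads in all libraries. In discs it was read almost entirely in tubular embryos. The gene (ENSBTAG00000018164) lies on chromosome 11 at 72181229 to 72183230 in UMD3.1 and has 1045 bases of exon. In 8 ovoid discs the lowest, median and highest FNDC4 levels were 0, 0.181 and 0.422 CPM, and in 14 tubular discs 0, 2.01 and 5.93 CPM. All ovoid discs together held 4 FNDC4 reads of 13399582, and the tubular discs 98 of 39608089. Of the tubular discs 13 of 14 were above every ovoid disc, and the exception was CONTROL replicate 1, at 0. Within BASAL the 4 ovoid discs had 0, 0.362, 0.400 and 0.411 CPM of FNDC4, and the 7 tubular discs 1.46 to 5.93. These ovoid discs held 3 reads of FNDC4 together, and the 0 is in a library of 1341534 reads. Whether the BASAL groups overlap was thus not detectable. In HIGH PA the ovoid discs had 0, 0, 0 and 0.422 CPM and the tubular discs 1.13, 1.15, 3.70 and 4.49. The 3 zeros are in libraries of 119116, 540818 and 1334459 reads, where a count of 0 allows up to 25.2, 5.55 and 2.25 CPM, so whether these groups overlap was not detectable at this depth. A single read was the highest count of FNDC4 in any ovoid disc, so these levels are at the edge of what the depth can show. The 3-read floor in discs lay between 0.486 and 25.2 CPM, depending on the library. The fit gave FNDC4 a log2 fold change of -2.89 (SE 0.54) for ovoid against tubular discs.

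TRPC4 had the same form of distribution. It lies on chromosome 12 at 24049604 to 24194475 (ENSBTAG00000009405, 3338 bases of exon), and 376 reads fell on it in all libraries. Ovoid discs had 0, 0.373 and 1.27 CPM of TRPC4 (lowest, median, highest) and tubular discs 0, 5.63 and 13.3 CPM. Together the ovoid discs held 9 TRPC4 reads and the tubular discs 204. In HIGH PA the ovoid discs had 0, 0, 0 and 1.27 CPM and the tubular discs 1.41, 6.24, 11.5 and 13.3 CPM. The zeros are in the same 3 shallow libraries as those of FNDC4, so an overlap was not detectable there either. In BASAL the tubular disc replicate 9 (0.371 CPM) lay among the ovoid discs (0 to 1.09 CPM). CONTROL replicate 1 was at 0 for TRPC4 as for FNDC4, and the other CONTROL discs had 6.75 and 7.77 CPM. The log2 fold change of TRPC4 was -2.93 (SE 0.62).

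STOM was the member that was higher in ovoid discs. It lies on chromosome 8 at 112646068 to 112680926 (ENSBTAG00000038375, 1661 bases of exon). Ovoid discs had 15.2, 45.1 and 77.7 CPM of STOM (lowest, median, highest), and tubular discs 8.28, 18.6 and 35.1 CPM. Of the 8 ovoid discs 6 were above every tubular disc, and the other 2, BASAL replicate 11 (23.1 CPM) and HIGH PA replicate 7 (15.2 CPM), both from cow07, lay within the tubular range. Among the 6, HIGH PA replicate 5 (42.0 CPM) held 5 reads of STOM in 119116. The highest tubular disc, CONTROL replicate 1 (35.1 CPM), held 10 in 284848, so the order of these discs was not detectable at this depth. The log2 fold change was 1.28 (SE 0.28). It was 1.11 when ED BASAL replicate 12 was left out, whose STOM level (76.8 CPM) was the second highest of all discs.

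GATM lies on chromosome 10 at 65325341 to 65341352 (ENSBTAG00000005586, 2311 bases of exon). Its levels in ovoid discs were 0, 10.5 and 21.3 CPM (lowest, median, highest), and in tubular discs 16.1, 29.8 and 44.2 CPM. The shapes overlapped between 16.1 and 21.3 CPM: 6 of 8 ovoid discs were below every tubular disc and 11 of 14 tubular discs above every ovoid disc. The GATM level of 0 belongs to HIGH PA replicate 5, which held 119116 reads, a depth at which a count of 0 allows up to 25.2 CPM. The log2 fold change was -1.38 (SE 0.28), and -1.06 (SE 0.27) without the 2 ovoid discs of cow66.

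SMARCA1 and MAGED1 are both on the X chromosome. SMARCA1 (ENSBTAG00000002292, 13358798 to 13433781, 3637 bases of exon) had 5.35, 17.3 and 28.7 CPM in ovoid discs and 19.0, 34.2 and 84.9 CPM in tubular discs (lowest, median, highest). Of the ovoid discs 5 of 8 were below every tubular disc. HIGH PA replicate 5, counted among these at 16.8 CPM, held only 2 reads of SMARCA1, so its place was not detectable at this depth. MAGED1 (ENSBTAG00000008733, 95708019 to 95714844, 2735 bases of exon) had 63.6, 111 and 132 CPM in ovoid discs and 101, 176 and 314 CPM in tubular discs. In BASAL the MAGED1 levels of the 4 ovoid discs were 63.6 (replicate 12), 71.6, 112 and 132 CPM, and those of the 7 tubular discs 134 to 211 CPM. The groups thus nearly met, at 132 and 134 CPM, and how many of all genes separate the shapes in BASAL was not counted. In HIGH PA the tubular replicate 6 (101 CPM) lay among the ovoid discs (83.2 to 130 CPM). The log2 fold changes were -1.32 (SE 0.25) for SMARCA1 and -0.84 (SE 0.17) for MAGED1.

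**Figure D1:**
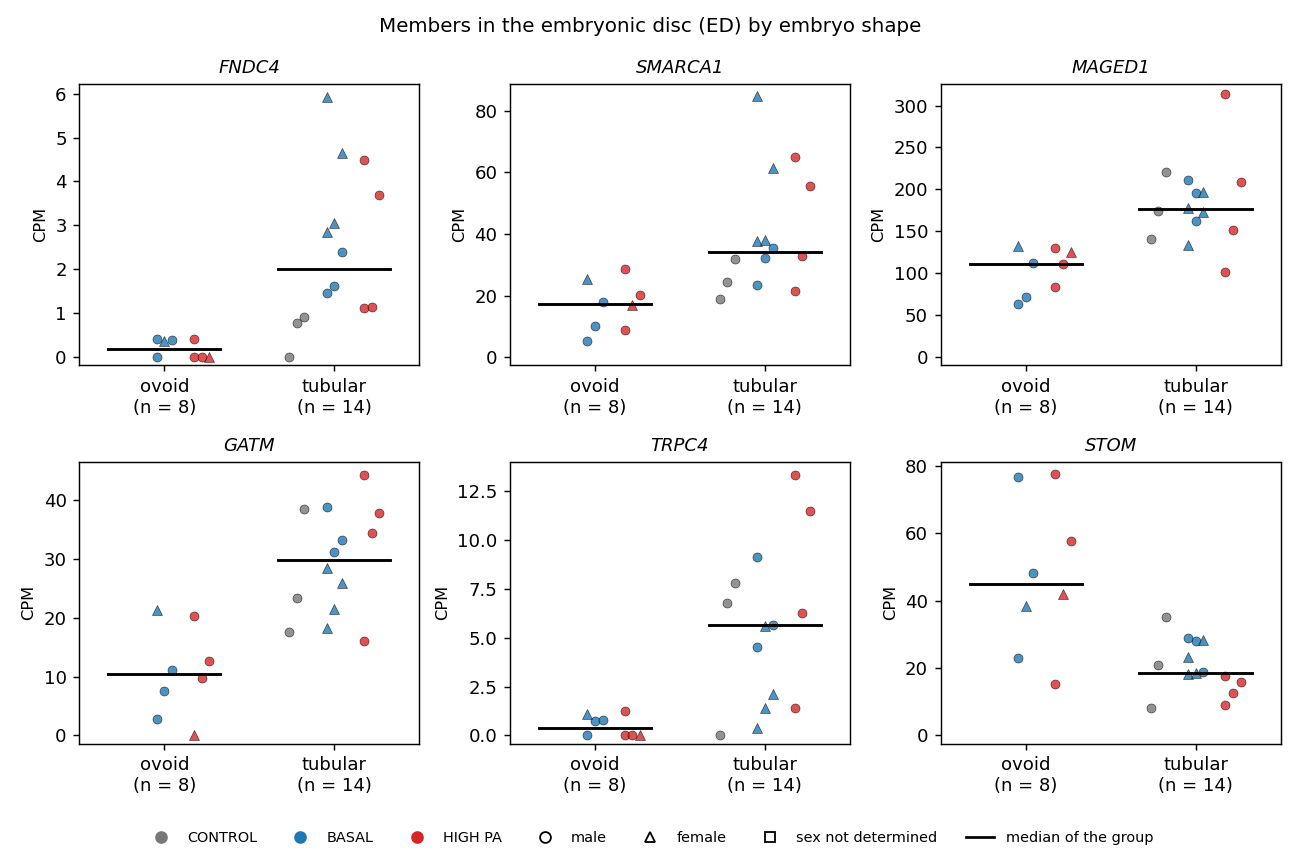
CPM of the 6 genes in embryonic discs by embryo shape, 1 panel for each gene with its own linear axis. Each point is a library, colour gives the maturation medium, the symbol gives sex, and the bar is the median of 8 ovoid or 14 tubular discs. STOM lies higher in ovoid discs (median 45.1 against 18.6 CPM) and the other 5 genes lie lower there, with ranges that overlap in every panel.

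This contrast chose the 6 genes, and their values in it are a description. Over all 11040 genes tested in discs 0 were called (0%, edgeR's quasi-likelihood test with Benjamini-Hochberg adjustment, adjusted p under 0.05), 806 had an unadjusted p under 0.05, and DESeq2 called 16. The median log2 fold change over all genes was -0.01. Shape went with the recipient cow: both discs of cow66 were ovoid and all discs of cow13 and cow813 tubular, and cow07, cow12 and cow72 gave both shapes. The only tubular disc of cow72 was the library of 6814 reads that the levels leave out. With cow as a block the values were smaller for 5 of the 6 genes, at -0.94 for SMARCA1, -0.46 for MAGED1, -0.67 for GATM, -1.65 for TRPC4 and 0.68 for STOM, and FNDC4 was at -2.94. The direction was kept for each of the 6.

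Both shapes occurred among discs of the same cow and medium 3 times. In BASAL discs of cow07, the ovoid disc had 17.9 CPM of SMARCA1 against 32.1 in the tubular disc, 112 against 211 CPM of MAGED1 and 11.2 against 31.2 CPM of GATM. In BASAL discs of cow12, the ovoid disc (25.3 CPM of SMARCA1, 132 of MAGED1, 21.3 of GATM) was below both tubular discs (35.3 and 38.0, 173 and 196, 25.9 and 38.7 CPM). In HIGH PA discs of cow07 the tubular disc (33.01 CPM of SMARCA1, 16.1 of GATM) was above both ovoid discs (8.99 and 28.7 CPM, 9.74 and 12.7 CPM), but for MAGED1 it lay between them (101 against 83.2 and 130 CPM). STOM in these discs was 23.1 CPM in the ovoid and 18.7 in the tubular disc (cow07, BASAL), 38.3 against 28.2 and 29.02 (cow12), and 15.2 and 57.7 against 17.8 (cow07, HIGH PA). The measured levels of FNDC4 and TRPC4 were lower in each ovoid disc than in the tubular discs of its cow and medium. For TRPC4 the closest pair was 1.27 against 1.41 CPM. No ovoid disc held more than 1 read of FNDC4 or 3 of TRPC4, so the order of close pairs was not detectable at this depth. In HIGH PA discs of cow07 the ovoid discs together held 1 FNDC4 read and the tubular disc 4.

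Sums of cell type markers overlapped between the disc groups. The summed level of 11 primitive streak and mesoderm markers had a median of 110 CPM in ovoid discs (range 5.20 to 301) and 229 CPM in tubular discs (67.1 to 398). For 12 hypoblast markers it was 1430 CPM (556 to 1887) against 1933 CPM (1137 to 3120), and 1 of these markers was at 0 in all libraries of each group. Most of this sum was APOA1 (median 1060 CPM in ovoid discs). Of the 10 hypoblast markers tested 9 were below 0 in the fit, with APOB at -2.42 (SE 0.65, unadjusted p = 0.000902, edgeR adjusted p = 0.368) and TF at -2.27 (SE 0.61, unadjusted p = 0.000981, adjusted p = 0.368). The 7 epiblast markers summed to 254 CPM (64.4 to 369) against 232 CPM (102 to 496), with SALL4 as the largest part (median 132 CPM in ovoid discs). In the fit 6 of 7 epiblast (median -0.44) and 6 of 8 streak markers tested (median -0.78) were below 0 as well. So were 3 of 11 trophectoderm markers (median 0.07) and 2 of 3 maternal ones (median -0.57). The 12 trophectoderm markers summed to 14787 CPM against 15146 CPM. The 6 maternal immune and endometrial markers, 2 of them at 0 in every disc, summed to 17.9 CPM (2.00 to 27.7) against 16.6 CPM (5.56 to 49.6). Of the markers tested in discs 0 were called between the shapes, and their part in the differences of the 6 genes was not tested. Compared per kilobase of exon, the median level in tubular discs was highest for MAGED1 (64.4 CPM per kilobase), followed by GATM (12.9), STOM (11.2), SMARCA1 (9.40), FNDC4 (1.92) and TRPC4 (1.69). MAGED1 did not overlap any other member there, while the ranges of GATM, STOM and SMARCA1 overlapped, as did those of FNDC4 and TRPC4. The highest FNDC4 level (5.68) was also above the lowest of STOM (4.99) and SMARCA1 (5.23). In ovoid discs STOM came second, with 27.1 CPM per kilobase, behind MAGED1 (40.7) and ahead of SMARCA1 (4.77) and GATM (4.53).

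EX tissue was not used to choose the genes, although most EX samples come from the same embryos as the discs. Ovoid EX samples had lower SMARCA1 and GATM than tubular ones, and no difference was called for MAGED1, TRPC4 and STOM. SMARCA1 in ovoid EX samples was 3.06, 5.41 and 63.4 CPM (lowest, median, highest, n = 9), and in tubular EX samples 10.6, 22.3 and 58.2 CPM (n = 16). Of the ovoid samples 5 of 9 were below every tubular sample, but the ovoid CONTROL replicate 4 had the highest level of all EX samples. GATM was 2.09, 3.19 and 7.43 CPM in ovoid and 2.37, 11.02 and 36.0 CPM in tubular EX samples. Of the tubular samples 11 of 16 were above every ovoid one. In edgeR's quasi-likelihood test with Benjamini-Hochberg adjustment over 11880 genes, SMARCA1 was at a log2 fold change of -1.50 (SE 0.35) with an adjusted p of 0.0124, and GATM at -1.32 (SE 0.39) with 0.0331. These are 2 of the 5 members that passed the low-count filter in EX, both lower, where 5.41% of all genes tested were called lower, 5.94% higher and 11.4% in either direction. DESeq2 called 2 of the members as well.

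MAGED1 was at 46.6, 78.4 and 104 CPM in ovoid and 45.1, 85.8 and 141 CPM in tubular EX samples, with a log2 fold change of -0.23 in edgeR (SE 0.16) and an adjusted p of 0.306. TRPC4 was at 0, 0.102 and 1.55 CPM against 0, 0.630 and 2.81 CPM (log2 fold change -1.15, SE 0.65, adjusted p = 0.213), with 27 reads in all ovoid and 136 in all tubular samples. Its value rested on single libraries: it was -2.06 without EX HIGH PA replicate 6 (adjusted p = 0.0751), which held 20 of the 27 ovoid reads, and -0.79 without the tubular EX HIGH PA replicate 7. STOM was at 14.2, 36.1 and 148 CPM against 13.5, 28.0 and 46.8 CPM (0.56, SE 0.34, adjusted p = 0.236), and the groups overlapped through most of their range. FNDC4 did not pass the filter in EX, where it was read 9 times in the ovoid and 27 times in the tubular samples and 4 reads were the most in any ovoid sample. The 2 spherical EX samples, both HIGH PA, had 97.1 and 174 CPM of STOM, above every tubular sample, and 0 reads of FNDC4 and TRPC4 among 1408423. Their levels of SMARCA1 (17.6 and 10.3 CPM), MAGED1 (88.2 and 47.7) and GATM (5.88 and 9.36) lay within the tubular range, except that SMARCA1 at 10.3 CPM was just under it.

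The calls for SMARCA1 and GATM depended on how the samples were grouped. With recipient cow as a block the log2 fold changes were -0.70 for SMARCA1 (adjusted p = 0.411) and -1.003 for GATM (adjusted p = 0.333), STOM turned to -0.0047, and 0 of all genes were called. SMARCA1 was called in each of 26 fits that left out 1 ovoid or tubular library (adjusted p 0.00118 to 0.0452). GATM was called in 18 of them and lost without EX HIGH PA replicate 3, 7 or 8, BASAL replicate 5, 6, 8 or 9, or CONTROL replicate 4 (adjusted p up to 0.106). A 2 added to the library name in the table's header, whose meaning the sources used here do not give, stood on 5 of 9 ovoid and 1 of 17 tubular EX libraries. These 6 libraries had mitochondrial shares of 4.15% to 20.9%, with a median of 5.29% over all ovoid and 4.17% over all tubular EX samples. With this mark as a term SMARCA1 was at -0.99 and GATM at -1.29, neither called (adjusted p 0.219 and 0.189), and with unmarked libraries alone they were at -1.34 and -1.43 (adjusted p 0.0793 and 0.110). Within BASAL alone the values were -1.65 and -1.73 and within HIGH PA alone -1.58 and -0.92, none of them called at these smaller numbers.

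Marker sums in EX overlapped between the shapes. The median sum was 20957 CPM in ovoid and 19711 CPM in tubular EX samples for 12 trophectoderm markers, 673 (498 to 1081) and 705 (477 to 1450) for hypoblast, 61.1 (27.7 to 119.6) and 53.3 (13.2 to 79.9) for epiblast, 9.07 and 6.22 for streak, and 6.52 (3.86 to 19.3) and 2.94 (2.10 to 14.9) for maternal cells. Beside 11.4% of all genes called in either direction, 2 of 11 trophectoderm markers were called higher and 2 lower in ovoid EX samples, 3 of 9 hypoblast and 1 of 3 epiblast markers higher, and 0 of 4 streak and 0 of 2 maternal markers. Their part in the differences of SMARCA1 and GATM was not tested.

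The low ovoid levels of SMARCA1 in EX were those of male embryos from cow07, cow66 and cow72. The 6 male ovoid EX samples had 3.06, 3.22, 4.50, 5.16, 5.41 and 16.1 CPM, and the male tubular samples 15.4, 21.2 and 55.7 CPM (lowest, median, highest, n = 12). The 3 female ovoid samples had 14.8, 35.8 and 63.4 CPM and the 4 female tubular samples 10.6, 45.8, 52.9 and 58.2 CPM, with full overlap. GATM in tubular EX samples was at 2.37, 2.66, 3.17 and 12.9 CPM in females, of which 3 of 4 were below every male (5.58, 11.9 and 36.0 CPM, lowest, median, highest). The female tubular EX samples were all BASAL and the male ones came from all 3 media, so these levels mix sex with medium. Sex went with recipient cow as well: the female ovoid EX samples came from cow12, cow72 and cow813. No female embryo came from cow07 or cow66, so sex and cow cannot be told apart in the ovoid samples. In males alone the log2 fold change between shapes was -2.02 for SMARCA1 (edgeR adjusted p = 0.000823) and -1.64 for GATM (adjusted p = 0.00351), in a fit that called 41.5% of all genes (4529 of 10921). In females alone it was -0.32 and -0.37, neither called, in a fit with 3 ovoid and 4 tubular samples that called 0 of all genes. The difference between the sexes was itself not called: the shape by sex term was -1.26 (SE 0.69, adjusted p = 0.249) for SMARCA1 and -1.41 (SE 0.75, adjusted p = 0.238) for GATM, with 0 of 11098 genes called (0%) and 2681 with an unadjusted p under 0.05. The shape by medium term in EX was not called for any member either, with 0 of 11087 genes called (0%) and 614 with an unadjusted p under 0.05.

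**Figure D2:**
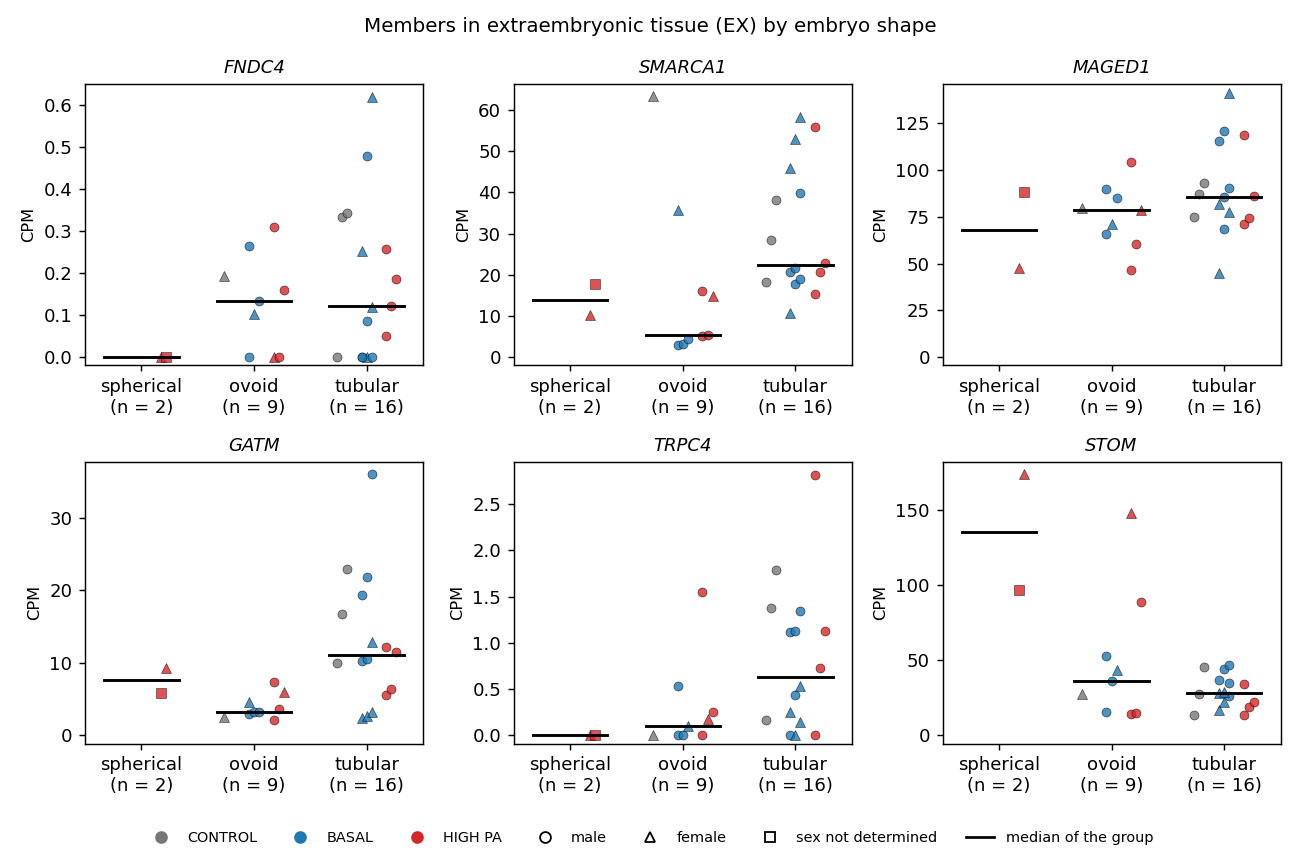
CPM of the 6 genes in extraembryonic tissue for 2 spherical, 9 ovoid and 16 tubular samples, 1 panel for each gene with its own linear axis. Each point is a library, colour gives the medium, the symbol gives sex, and the bar is the median. SMARCA1 and GATM have lower medians in ovoid than in tubular samples (5.41 against 22.3 and 3.19 against 11.02 CPM), and both spherical samples lie above all tubular samples for STOM.

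Compared within embryos, TRPC4, GATM and MAGED1 were lower in EX tissue than in the disc, STOM was higher, and no difference was called for SMARCA1. FNDC4 failed the low-count filter in EX alone and passed it here through the discs, where it is high, so its values between the tissues are a description. FNDC4 had a median of 1.02 CPM in discs and 0.127 CPM in EX tissue (22 embryos) and was lower in 17 of them, equal in 2 and higher in 3. TRPC4 fell from 1.42 to 0.349 CPM and was lower in 17 of 22 embryos. In GATM the median was 21.4 CPM in discs and 6.19 CPM in EX tissue, and it was lower in 20 of 22 embryos, among them all 14 tubular ones. MAGED1 had 146 CPM in discs and 80.2 CPM in EX tissue and was lower in 19 of 22 embryos, again all 14 tubular ones. STOM had 23.2 CPM in discs and 28.0 CPM in EX tissue and was higher in EX in 15 of 22 embryos. SMARCA1 had 27.0 against 19.4 CPM and was lower in 15 of 22.

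With embryo as a block the log2 fold changes in edgeR were -2.31 for TRPC4 (SE 0.36, adjusted p = 2.87e-06), -1.36 for GATM (SE 0.19, adjusted p = 4.18e-07) and -0.60 for MAGED1 (SE 0.11, adjusted p = 2.13e-05). STOM was at 0.44 (SE 0.15, adjusted p = 0.0115) and SMARCA1 at -0.33 (SE 0.18, adjusted p = 0.120). FNDC4 was at -2.87 (SE 0.43). Of the 5 members that also passed the filter in EX alone, 3 were lower, 1 was higher and 1 was not called, while of all 12291 genes tested 31.5% were called lower and 24.2% higher. Without the embryo block STOM was not called (0.51, adjusted p = 0.0924). The disc side of this comparison holds the samples that chose the genes. Markers moved with it: 7 of 7 epiblast, 10 of 11 streak, 10 of 10 hypoblast (median -2.06) and 2 of 3 maternal markers were lower in EX, and 8 of 11 trophectoderm markers and 1 maternal marker higher. Of those lower, 4 epiblast, 7 streak, 1 hypoblast and 1 maternal marker passed the filter through the discs only. Their part in the differences of the 6 genes was not tested.

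The pairs are given by shape as well, as a description. In tubular embryos STOM was higher in EX tissue in 12 of 14 (medians 18.6 CPM in discs and 26.9 in EX), and in ovoid embryos in 3 of 8 (45.1 and 39.98 CPM). FNDC4 was lower in EX in 13 of 14 tubular embryos and 4 of 8 ovoid ones, and TRPC4 in 13 of 14 and 4 of 8. SMARCA1 was lower in EX in 9 of 14 tubular (34.2 against 25.6 CPM) and 6 of 8 ovoid embryos (17.3 against 5.28 CPM). These counts use the disc levels that chose the genes by shape, so a difference between the shapes is built into them.

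**Figure D3:**
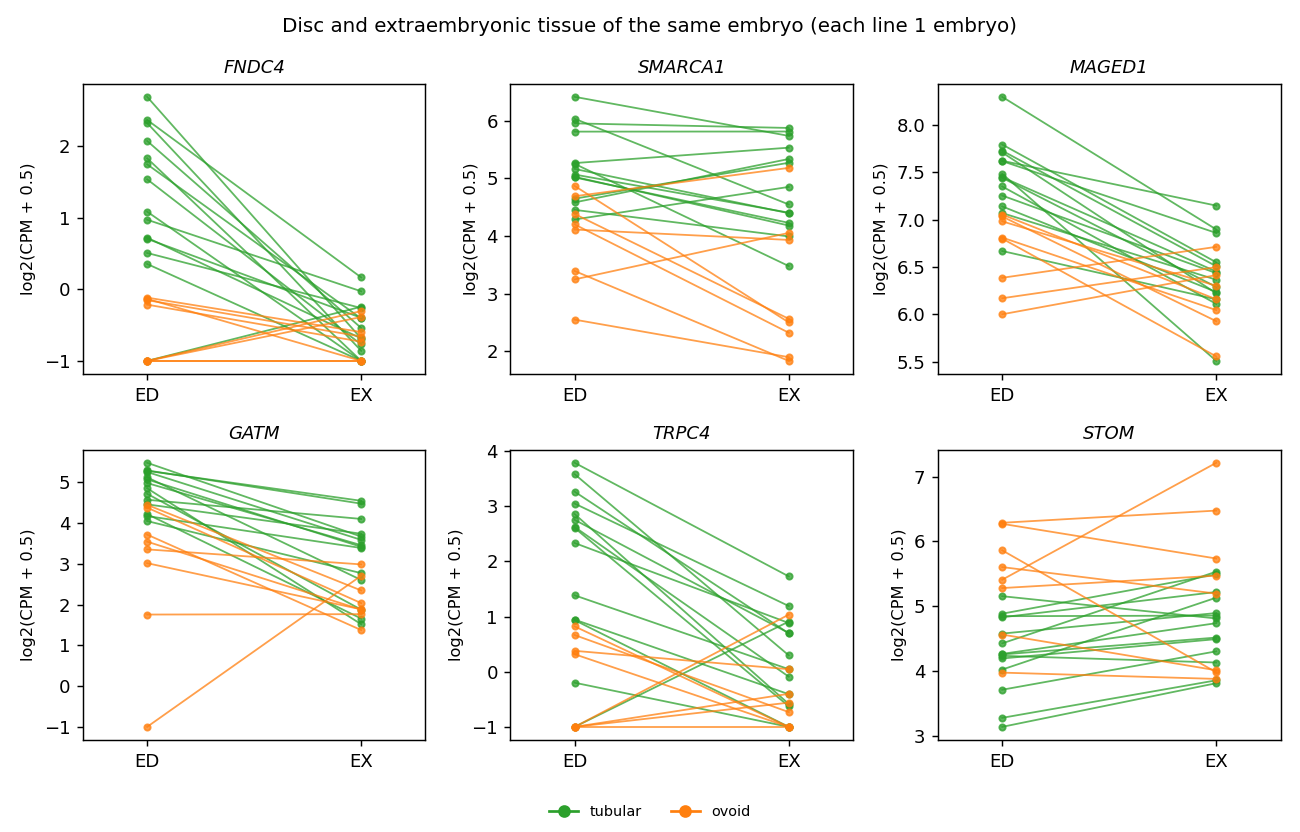
log2(CPM + 0.5) of the 6 genes in embryonic disc and extraembryonic tissue of 22 embryos, 1 panel for each gene. Each line is 1 embryo, green for 14 tubular and orange for 8 ovoid embryos. GATM and MAGED1 fall from disc to extraembryonic tissue in all 14 tubular embryos, and STOM rises in 12 of 14 tubular and 3 of 8 ovoid embryos.

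By medium the levels of all 6 genes overlapped. In discs FNDC4 was at 0, 0.777 and 0.920 CPM in the 3 CONTROL libraries, at 0 to 5.93 in 11 BASAL (median 1.62) and at 0 to 4.49 in 8 HIGH PA libraries (median 0.775). TRPC4 was at 0, 6.75 and 7.77 CPM in CONTROL, 0 to 9.11 in BASAL (median 1.42) and 0 to 13.3 in HIGH PA (median 1.34). STOM was at 8.28, 21.0 and 35.1 CPM in CONTROL, 18.3 to 76.8 in BASAL (median 27.9) and 9.18 to 77.7 in HIGH PA (median 16.8), so each medium spanned much of the range of the others. GATM was at 17.6, 23.3 and 38.5 CPM in CONTROL, with medians of 21.5 in BASAL and 18.2 in HIGH PA. SMARCA1 was at 19.0, 24.6 and 31.9 CPM in CONTROL, with medians of 32.1 and 25.1 in BASAL and HIGH PA. MAGED1 was at 141, 174 and 221 CPM in CONTROL, with medians of 163 and 128. CONTROL had tubular discs only, and BASAL and HIGH PA had both shapes.

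In EX tissue the medians for CONTROL, BASAL and HIGH PA (n = 4, 13 and 10) were 33.2, 20.6 and 15.8 CPM for SMARCA1, 83.5, 84.9 and 76.3 for MAGED1, and 13.3, 4.59 and 6.19 for GATM. For STOM they were 27.7, 34.7 and 28.3 CPM, for TRPC4 0.772, 0.254 and 0.218, and for FNDC4 0.264, 0.102 and 0.0863. HIGH PA held the widest STOM range, 14.0 to 174 CPM, since it held the spherical samples and the ovoid replicates 1 (148 CPM) and 5 (88.6 CPM). In the 6 comparisons of media, 0 of 6 members were called in discs and 0 of 5 in EX tissue, as were 0 of all genes tested (0%) in edgeR. Between 375 and 1075 genes had an unadjusted p under 0.05 in each comparison, and DESeq2 called 1 gene between BASAL and CONTROL in EX and 0 in the others. The difference of largest size among the members, singled out after its value was seen, was STOM in discs, BASAL against CONTROL (log2 fold change 1.12, SE 0.62, edgeR adjusted p = 1.00), and the other 32 values lay between -0.74 and 1.05 with adjusted p of 0.61 or more.

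Between sexes 0 of the 6 members were called in discs, where 6 of 11040 genes were called (0.0543%), and 0 of 5 in EX, where 102 of 11114 were (0.918%, of which 0.288% lower and 0.63% higher in females). All 4 female tubular discs were BASAL, and the male tubular discs came from all 3 media. The levels by sex given here thus mix sex with medium, which was a term in the fits. The X-linked SMARCA1 was at 37.6, 49.8 and 84.9 CPM in the 4 female tubular discs (lowest, median, highest) and at 19.0, 31.99 and 65.1 CPM in the 10 male ones. Its log2 fold change, female against male, was 1.02 (SE 0.39, edgeR adjusted p = 0.525) in discs and 0.89 (SE 0.43, adjusted p = 0.613) in EX. With shape as a term the EX value was 1.58 and was called (adjusted p = 0.0250), as were 0.875% of all genes in that fit. MAGED1, also X-linked, was at 0.14 (SE 0.26) in discs and -0.15 (SE 0.17) in EX. FNDC4 had 2.85, 3.85 and 5.93 CPM in female and 0, 1.303 and 4.49 CPM in male tubular discs (log2 fold change 1.39, SE 0.66, adjusted p = 0.584). TRPC4 went the other way, with 0.371, 1.77 and 5.59 CPM in female and 0, 6.50 and 13.3 CPM in male tubular discs, and log2 fold changes of -0.92 (SE 0.81, adjusted p = 0.776) in discs and -1.94 (SE 0.75, adjusted p = 0.373) in EX. GATM in EX was at -1.09 (SE 0.44, adjusted p = 0.417), and with cow as a block at -1.56 (adjusted p = 0.0432), in a fit that called 1.46% of all genes.

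**Figure D4:**
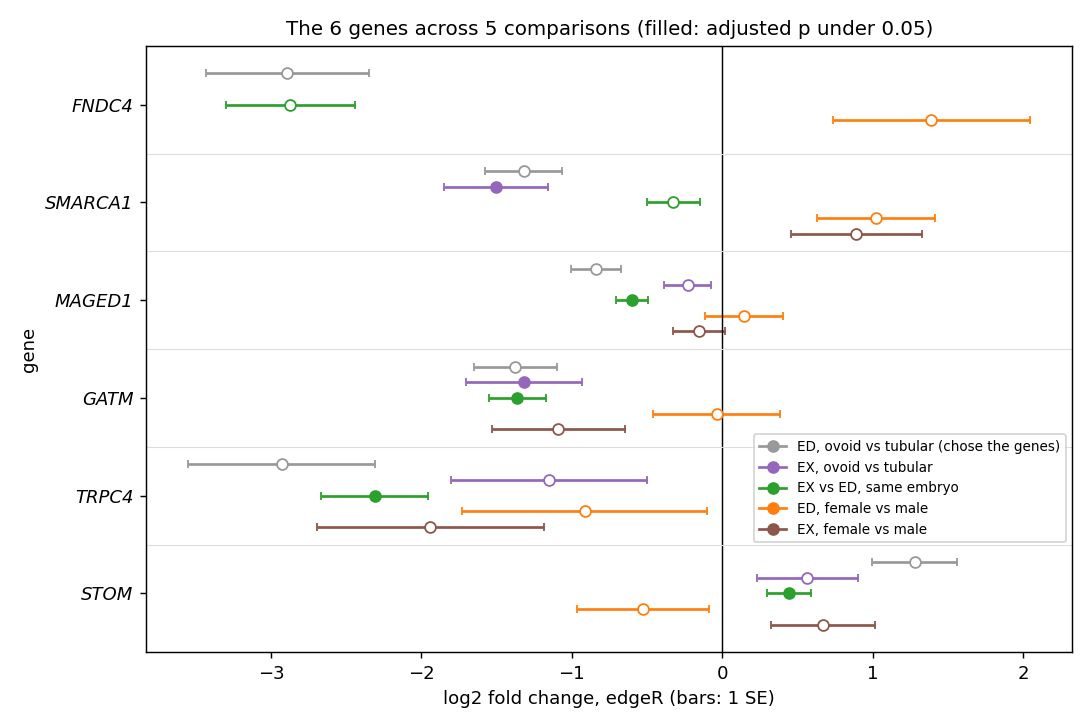
log2 fold changes of the 6 genes in 5 comparisons, with bars of 1 SE from edgeR, and filled points for an adjusted p under 0.05. Grey marks the disc comparison that chose the genes and is never filled, and FNDC4 between tissues is not filled because it passed the filter through discs only. Filled points are those of SMARCA1 and GATM between shapes in extraembryonic tissue (-1.50 and -1.32) and of MAGED1, GATM, TRPC4 and STOM between the tissues (-0.60, -1.36, -2.31 and 0.44).

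Across 21 discs, without the library labelled ED BASAL replicate 12, the levels of the members moved together to different degrees. These are correlations of log2 CPM, given as a description, since the discs share tissue and differ in depth and shape and the members were chosen for a common contrast. FNDC4 and SMARCA1 had a Pearson's r of 0.798 (Spearman's rho 0.827), SMARCA1 and MAGED1 of 0.751 (0.670), and GATM and TRPC4 of 0.683 (0.824). STOM ran against all 5 others, most against TRPC4 (-0.786, rho -0.786) and least against GATM (-0.451, rho -0.474).

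Among 9778 other named genes, those most like FNDC4 were C7orf73 (r = 0.885), SMARCA1 itself and MORF4L2 (0.755). For MAGED1 they were EMILIN2, a glycoprotein of the extracellular matrix (0.886), AK4, a mitochondrial adenylate kinase (0.853), and RBP4, the retinol carrier (0.849). For GATM they were IGFBP4, which binds insulin-like growth factors (0.946, rho 0.848), SLC39A5, a zinc transporter (0.944, rho 0.903), and HPN, a membrane serine protease (0.940, rho 0.720). COL4A6, a chain of basement membrane collagen (0.839), SMIM24 (0.838) and the protocadherin PCDH7 (0.830) came closest to TRPC4. After FNDC4, SMARCA1 was most like TBC1D9B (0.757) and HMGCS1, an enzyme of cholesterol synthesis (0.753, rho 0.468). For STOM the closest were lower: the transcription factor TEF (0.730), the ceramide synthase CERS4 (0.695) and MAT2A, which makes S-adenosylmethionine (0.679). With the left-out library included, IGFBP4 and HPN gave way to RBKS and BMP4 for GATM, and TEF and CERS4 to SRR and KRI1 for STOM. TBC1D9B gave way to MAGED1 for SMARCA1, AK4 to AGPAT1 for MAGED1 and PCDH7 to CHST10 for TRPC4, and FNDC4 kept its 3 genes.

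The relatives and partners of each member were counted too, from lists that leave the members themselves out. Between ovoid and tubular discs 0 of the 18 ISWI and other remodelling genes tested, 0 of 10 MAGE family and p75 partner genes, 0 of 12 creatine and arginine genes, 0 of 16 TRPC and store-operated calcium genes, 0 of 11 stomatin and raft genes and 0 of 6 FNDC and fibronectin type III genes were called, as were 0 genes in all. Their median log2 fold changes lay between -0.18 and 0.02, beside -0.01 over all genes.

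Between ovoid and tubular EX samples 5.94% of all genes were called higher and 5.41% lower, and with cow as a block edgeR called 0 of them (2009 at an unadjusted p under 0.05), so no list gene named here was called in that fit. Of the 18 remodelling genes 0 were called (median -0.25, all genes 0.0035), and of 13 creatine and arginine genes SRM, the spermidine synthase, was higher (0.68, SE 0.20, adjusted p = 0.0306 in edgeR) and SLC7A2, a cationic amino acid transporter, lower (-1.47, SE 0.43, adjusted p = 0.0332). Of 10 MAGE and p75 genes 4 were higher and 0 lower (median 0.37), among them NSMCE3, a subunit of the SMC5/6 complex (0.34), TRIM28, a corepressor (0.39), and MAGEF1 (0.82). Of 14 calcium entry genes PLCB3 (0.46) and the channel ORAI1 (0.60) were higher and GNAQ (-1.24) lower. Of 6 FNDC and fibronectin type III genes FN1 (-0.75) and the integrin ITGAV (-1.21) were lower, and of 11 stomatin and raft genes 0 were called.

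Between EX tissue and disc more of them differed, as did more of all genes (31.5% lower, 24.2% higher). Some of the list genes passed the filter through the discs only and all of those were lower: 2 of the MAGE, 1 of the creatine, 3 of the calcium entry (ORAI2 among them) and 2 of the stomatin genes (CAV1 among them). Their values are a description, and the counts of lower genes below hold them. Of 12 MAGE and p75 genes 10 were lower in EX (8 without these) and 2 higher. MAGED2 (-1.96, SE 0.17), the p75 receptor NGFR (-3.27, SE 0.33) and the MAGE protein NDN (-3.11, SE 0.34) had the lowest p. Of 18 remodelling genes 9 were lower, among them CECR2 (-1.59) and SMARCA2 (-0.64), and 2 higher, among them RBBP7 (0.45). Of 14 creatine and arginine genes 5 were lower (4 without these) and 6 higher: GAMT, which turns guanidinoacetate into creatine, fell by 2.18 on the log2 scale (SE 0.23) as GATM did, while SRM (0.90) and the ornithine aminotransferase OAT (0.70) rose. Of 17 calcium entry genes 7 were lower (4 without these), among them ITPR2 (-2.83) and GNAI2 (-0.88), and 4 higher, and ORAI2 was at -4.45. Of 13 stomatin and raft genes 5 were lower (3 without these), among them FLOT2 (-0.97), and 3 higher, among them ERLIN1 (0.46), and CAV1 was at -4.98. Of 6 FNDC and fibronectin type III genes 3 were lower, namely ADGRF5 (-1.59), which is known as a receptor of shed FNDC4, FN1 (-0.65) and ITGB5 (-0.30).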

How the data were processed

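Messenger RNA of discs and extraembryonic tissue was sequenced with a stranded kit as paired reads, per the labels' protocols. The authors deposited whole-number counts for each library and feature (all exon reads, used for every test; uniquely placed exon reads, an alternative; intron reads, for quality), with exon length and position (the start and end of a feature, of unit other) as deposited. The submitters' processing notes name UMD3.1 as build and DESeq2 1.10.1 as a tool. The aligner was not given in the sources used here. Each member matched 1 row of the table, and 100% of its reads were uniquely placed. No 2 libraries were identical (0 identical pairs). Sequences of the genes were not used here.

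The members and gene lists were chosen with earlier results of these data known. Named are all members in every comparison except media, where fold changes are given by their range, the 3 genes of highest correlation to each member, the 2 genes that follow STOM in the order of p, and up to 3 called genes of lowest p of each list. Counts were fitted in edgeR 4.0.16 (quasi-likelihood F test, TMM factors, filterByExpr, Benjamini-Hochberg over all genes tested, call at 0.05): shape with medium and sex as terms, media with sex, sexes with medium, and tissues with embryo as a block over 23 embryos. An SE is the size of the log2 fold change divided by the root of its F statistic. Fits with sex as a term omit 1 spherical EX sample whose sex was not determined, and no fit holds the undissected embryos. Embryos are the replicates behind each p-value, and several come from the same cow. Recipient cows pair some embryos across media and shapes, and cow as a block was an alternative. Other alternatives were DESeq2 1.42.0, its size factors in edgeR, no filter, uniquely placed reads, libraries left out, shape as a term, each medium or sex alone and the marks in library names. The fits were tested on simulated data. R 4.3.3 and Python 3.11.15 were used.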

Additional observations from a re-analysis of the deposited data

Results flagged for a closer look

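In 48 groups of 4 to 10 libraries, 5 had a library set apart from the rest by Dixon's 95% criterion. Its chance rate of about 1 in 20 groups is for normally distributed values and does not hold for levels near 0. Where all libraries but 1 are at 0, a single read meets it. In HIGH PA ovoid discs, replicate 7 was the only library with reads of FNDC4 (0.422 CPM) and of TRPC4 (1.27 CPM), and the other 3 were at 0. In BASAL ovoid discs, replicate 11 was at 0 for FNDC4, where the next library had 0.362 CPM. These 3 rest on 1 to 3 reads. In BASAL ovoid EX samples, replicate 12, the only female of the 4 and the only one from cow12, had 35.8 CPM of SMARCA1. The next had 4.50 CPM. In HIGH PA ovoid EX samples, replicate 6, the deepest of the 4, had 1.55 CPM of TRPC4 (20 reads), and the next 0.257 CPM.

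The 2 undissected HIGH PA embryos, both from cow66, entered no comparison. Their STOM levels were 90.2 CPM (spherical) and 78.1 CPM (ovoid), above every CONTROL library, the highest of which had 45.8 CPM. These were 2 of 12 values of the members in undissected embryos that lay above all CONTROL libraries.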

How the results depend on the processing

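Alternatives of single members outside the media comparisons numbered 429, with those of STOM in discs between BASAL and CONTROL counted among them. Of the 429, 399 kept direction and call, 22 lost the call, 2 gained it and 4 changed sign. A further 2, of the untested disc values, moved by more than 1 SD of log2 levels between tubular discs. The alternatives by marks in library names, sex, depth under 1000000 reads, cow66 and single EX libraries were chosen after seeing the data. Between ovoid and tubular EX samples the 2 members called (SMARCA1, GATM) became 0 with the cow block, in BASAL alone, in HIGH PA alone, with the mark 2 as a term, in unmarked libraries alone and in females alone, and 1 (SMARCA1) with the letter of the library name as a term; leaving out single libraries gave 1 to 2. All genes called there went from 1349 to 0, 1, 0, 21, 190, 0 and 488 in that order, and were 4529 in males alone, 997 with DESeq2, 299 without EX BASAL replicate 6 and 4345 without EX BASAL replicate 11. The subsets held fewer samples, and the cause of these changes was not tested. Between sexes in EX, 0 members called became 1 with the cow block (GATM) and 1 with shape as a term (SMARCA1).

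The replicate numbers in the labels do not pair embryos, so recipient cow was the replicate block. It turned the sign of STOM between shapes in EX (-0.0047) and of MAGED1 (-0.31) and STOM (0.10) between sexes in discs, and gave GATM -0.67 and STOM 0.68 between shapes in discs, the 2 that moved by more than that SD; MAGED1 (-0.46), TRPC4 (-1.65) and SMARCA1 (-0.94) were smaller as well. GATM between sexes in discs turned to 0.0796 without libraries under 1000000 reads. In the media comparisons 32 member values, without STOM in discs between BASAL and CONTROL, had 378 alternatives. Of these 39 had the other sign and 0 were called. Depth limits FNDC4 and TRPC4 most: a count of 0 allows up to 25.2 CPM in the shallowest disc used for levels and up to 8.82 CPM in EX.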
